A study of Homo sapiens with 2 samples.

Results

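The 10 genes described here encode subunits of integrins, the matrix receptors of the cell, and were measured in MDA-MB-231 cells: the alpha subunits ITGA2, ITGA3, ITGA5, ITGA6 and ITGAV and the beta subunits ITGB1, ITGB3, ITGB4, ITGB5 and ITGB8. They were taken by gene name from the 58233 gene rows of the expression table, in which each of these names stood on 1 row, and they were not chosen by their values. MDA-MB-231 is a long-used human breast cancer line. One culture carried a lentiviral hairpin against MPP7, a scaffold protein of cell junctions (shMPP7), and the other a lentiviral control hairpin (shCon). Both cultures thus carry lentivirus, given at a multiplicity of infection of 10. The medium was changed 12 h later, and puromycin was applied for 7 days to obtain stable lines. The labels do not say whether these lines were clones or pools, nor how many hairpins against MPP7 were used. Total RNA gave 1 library per group, with 24513089 estimated counts in shMPP7 and 23928620 in shCon. There is therefore no spread between replicates and no test of the hairpin. Intervals in parentheses are exact 95% intervals that cover counting error only, not differences between cultures.

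Integrins are heterodimers of 1 alpha and 1 beta subunit that span the plasma membrane and tie the matrix to the actin or keratin cytoskeleton. The pairing decides the ligand: alpha 2 beta 1 binds collagen, alpha 3 beta 1 and both alpha 6 pairs bind laminins, alpha 5 beta 1 binds fibronectin, and the alpha V pairs bind RGD-bearing proteins such as vitronectin, fibronectin or latent TGF-beta. In breast cancer cells they are known for their part in adhesion, migration and invasion.

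MPP7 itself had 21 counts (13.0 to 32.1) in shMPP7, against 42 (30.3 to 56.8) in shCon, a ratio of 0.488 (0.275 to 0.843) in CPM, the count divided by the library total and scaled to 1000000. All 5 markers of a mesenchymal basal line, such as VIM and AXL, had at least 3727 counts in each library. Of the 4 epithelial and hormone receptor markers, CDH1, ESR1 and PGR had at most 3 counts in shMPP7 and 5 in shCon. EPCAM had 148 counts in shMPP7 and 165 in shCon. The 7 leukocyte markers summed to 43 counts in shMPP7 and 44 in shCon, with PTPRC at 1 and 0 and CD3E at 0 in both. ITGB2, which is on this list, held 38 and 26 of these counts. The 4 platelet markers summed to 25 and 27 counts, with GP9 at 0 in both and ITGA2B at 17 and 15. The 4 endothelial markers summed to 180 and 185 counts, with KDR at 102 and 111 and PECAM1 at 73 and 68.

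Levels between genes were compared in FPKM, the deposited value per transcript length and library size. ITGB1 stood first in both libraries, at 491 FPKM in shMPP7 and 507 FPKM in shCon, and ITGA3 second, at 333 FPKM in shMPP7 and 322 FPKM in shCon. Among all gene names, ITGB1 ranked 230th by FPKM in shMPP7 and 211th in shCon. ITGB5, ITGA6 and ITGA5 followed in this order in both libraries, between 60.4 and 77.9 FPKM in shMPP7 and between 42.8 and 83.5 FPKM in shCon. ITGA2, ITGAV and ITGB4 lay between 13.5 and 24.9 FPKM in shMPP7 and between 16.6 and 27.7 FPKM in shCon. ITGB3 was under 1 FPKM, and ITGB8 was close to absent, at 0.031 FPKM in shMPP7 and 0.098 FPKM in shCon. The order was the same in both libraries except for 1 exchange, which was not present in CPM per kb of the longest transcript. In FPKM, ITGB4 stood above ITGAV in shMPP7, at 24.9 against 23.6 FPKM with overlapping counting intervals, and below it in shCon, at 21.5 against 27.7 FPKM. In CPM per kb, ITGAV stood above ITGB4 in both libraries, at 17.5 against 16.3 in shMPP7 and 21.2 against 15.8 in shCon.

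**Figure D1:**
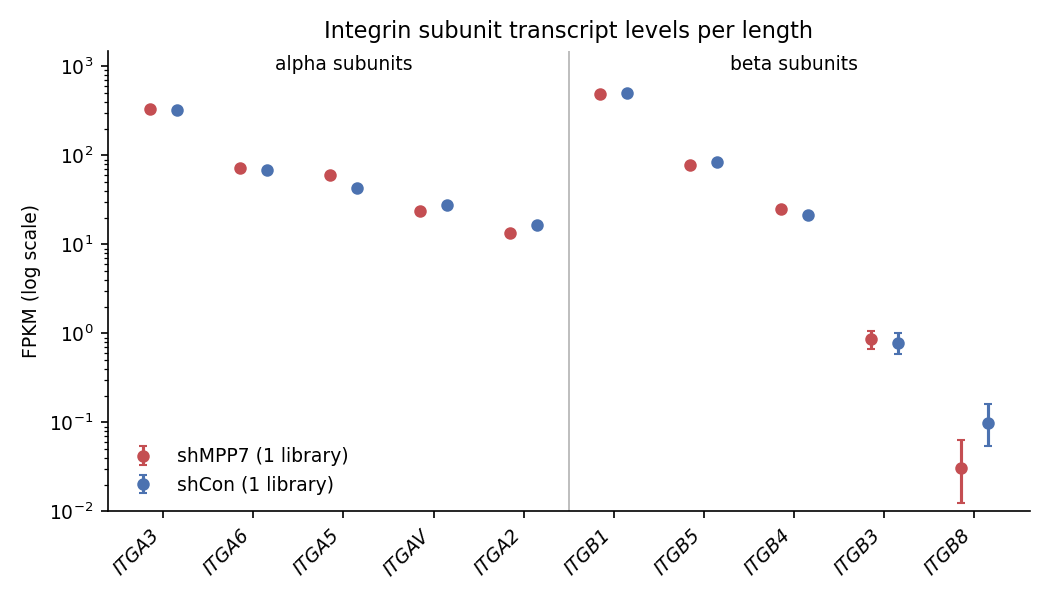
FPKM (log axis) of the 5 alpha and 5 beta subunits in shMPP7 (red) and shCon (blue), 1 library each, with bars for the 95% counting interval. ITGB1 and ITGA3 stand above the other subunits in both libraries, and ITGB3 and ITGB8 lie under 1 FPKM.

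No integrin subunit with enough counts to be compared differed by 2-fold between the libraries. Of the 10 genes, 9 had at least 100 counts over both libraries, the minimum for a comparison, and 0 of the 9 passed 2-fold. Of all 12155 genes with that many counts, 0.263% passed it in either direction. At 1.2-fold, 2 of the 9 were called, ITGB3 higher and ITGAV lower, against 15.9% of all genes compared. The median log2 CPM ratio of shMPP7 over shCon was -0.01 for the 10 subunits and -0.02 for all genes compared. It was 0.01 for the 5 alpha subunits and -0.02 for the 5 beta subunits. The count interval lay below 1 for 3 of the 9 (ITGAV, ITGA2 and ITGB1) and above 1 for 2 (ITGA5 and ITGA3), while 21.5% of all genes compared lay below 1 and 13.8% above. The interval narrows as counts grow, so abundant genes leave 1 more easily. Among the 7522 genes with at least 1000 counts, 24.7% lay below 1 and 17.8% above.

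ITGAV, the alpha subunit shared by the RGD-binding pairs, was the lowest of the well-counted subunits in shMPP7 relative to shCon. The gene (ENSG00000138448) lies on chromosome 2, bases 186590065-186680901 (GRCh38), plus strand. It had 3019 counts (123 CPM) in shMPP7, against 3564 counts (149 CPM) in shCon, a CPM ratio of 0.827 (0.787 to 0.868). Among the genes compared, 10.5% had a ratio as low or lower, and among those with at least 1000 counts 5.36%.

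ITGA2, whose product with beta 1 is a collagen receptor, was also lower. The gene (ENSG00000164171) lies on chromosome 5, positions 52989326 to 53094779, plus strand. It had 2316 counts (94.5 CPM) in shMPP7, against 2624 counts (110 CPM) in shCon, a ratio of 0.862 (0.814 to 0.911). A ratio as low or lower was found in 15.6% of the genes compared and in 9.39% of those with at least 1000 counts.

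ITGA3, the alpha subunit of a laminin receptor and the most abundant alpha transcript, was nearly equal. The gene (ENSG00000005884) lies on chromosome 17, positions 50055968 to 50090481, plus strand. It had 35333 counts (1441 CPM) in shMPP7, against 33626 counts (1405 CPM) in shCon, a ratio of 1.03 (1.01 to 1.04). Its interval leaves out 1 at a difference of a few percent, with the largest summed count of the 10 genes.

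ITGA6 pairs with beta 1 or, in hemidesmosomes, with beta 4, and both pairs bind laminin. The gene (ENSG00000091409) lies on chromosome 2, positions 172427354 to 172506282, plus strand. It had 8328 counts in shMPP7, against 8083 in shCon, a CPM ratio of 1.01 (0.975 to 1.04).

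ITGA5, the alpha subunit of the main fibronectin receptor, was slightly higher in counts. The gene (ENSG00000161638) lies on chromosome 12, positions 54395261 to 54419460, minus strand. It had 4593 counts (187 CPM) in shMPP7, against 4294 counts (179 CPM) in shCon, a ratio of 1.04 (1.00 to 1.09) whose lower bound was 1.001.

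ITGB1, the beta subunit that pairs with each of these alpha subunits, was slightly lower. The gene (ENSG00000150093) lies on chromosome 10, positions 32900319 to 33005792, minus strand. It had 32438 counts (1323 CPM) in shMPP7, against 33889 counts (1416 CPM) in shCon, a ratio of 0.934 (0.920 to 0.949). A processed pseudogene on another chromosome, AC022149.1, matches an ITGB1 transcript at 100% identity over 609 bases, and reads from this stretch cannot be told apart. The pseudogene had 602 counts in shMPP7 and 573 in shCon, and the ratio of the summed counts was 0.936 (0.922 to 0.950).

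ITGB5, an alpha V partner in a vitronectin receptor, had 4250 counts in shMPP7, against 4221 in shCon, a CPM ratio of 0.983 (0.942 to 1.03). The gene (ENSG00000082781) lies on chromosome 3, positions 124761948 to 124901418, minus strand. ITGB4, whose long cytoplasmic tail anchors keratin filaments through plectin, had 2365 counts in shMPP7, against 2244 in shCon, a ratio of 1.03 (0.971 to 1.09). The gene (ENSG00000132470) lies on chromosome 17, positions 75721328 to 75757818, plus strand. Neither interval leaves out 1.

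ITGB8, whose product with alpha V binds latent TGF-beta, was too low to compare. The gene (ENSG00000105855) lies on chromosome 7, positions 20330702 to 20415754, plus strand. It had 7 counts (2.81 to 14.4) in shMPP7, against 15 counts (8.40 to 24.7) in shCon, a CPM ratio of 0.455 (0.157 to 1.19). The ratio is past 2-fold, but its interval includes 1, and 9.7% of the 18297 genes above 0 in both libraries were past 2-fold in either direction. At this depth no difference was detectable.

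**Figure D2:**
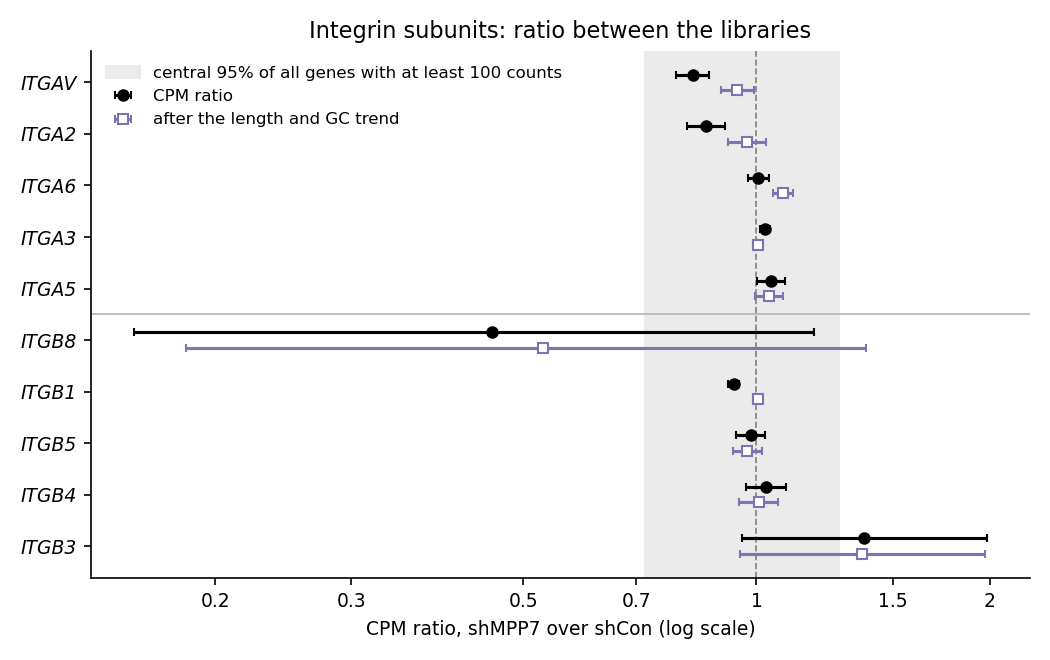
CPM ratio of shMPP7 over shCon (log axis) for each subunit, alpha above and beta below, as counted (black) and after a length and GC trend was subtracted (open squares), with 95% counting intervals. Of the 10 subunits, ITGB8 and ITGB3 have ratios outside the grey band that holds the central 95% of genes with at least 100 counts, and their intervals include 1.

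ITGB3, which pairs with alpha V as a vitronectin receptor and with alpha IIb on platelets, had the highest ratio. It shares exons with another counted gene. How the unnamed counting tool divided reads of these exons was not tested. The gene (ENSG00000259207) lies on chromosome 17, positions 47253846 to 47311816, plus strand. It had 76 counts (59.9 to 95.1) in shMPP7, against 53.9 counts (40.6 to 70.5) in shCon, a CPM ratio of 1.38 (0.957 to 1.98). An overlapping protein-coding gene, AC068234.1 (ENSG00000259753), shares 2266 of the 4394 exonic bases of ITGB3 on the same strand (51.6%). That gene had 0 counts in shMPP7, against 25.1 in shCon. The upper 95% counting bound of its CPM ratio was 0.155. Added together, ITGB3 and AC068234.1 had 76 counts in shMPP7 and 79 in shCon, a ratio of 0.939 (0.676 to 1.30). The higher count of ITGB3 alone was therefore not present in the sum.

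AC068234.1 shares the ends of 14 of the 15 exons of ITGB3. After the last of them ITGB3 goes on into its final exon and AC068234.1 into exons farther downstream. The coding bases around this point are shown because reads up to it belong to both genes and reads past it to one of them. Each line gives, in GENCODE 29 on GRCh38 and 5′ to 3′ on the plus strand, the last 60 shared bases (chr17:47307578-47307637) in capitals and the next 60 coding bases in lower case. These next bases are chr17:47310139-47310198 in ITGB3 and chr17:47328269-47328328 in AC068234.1, and they agree at 15 of 60 positions.
ITGB3: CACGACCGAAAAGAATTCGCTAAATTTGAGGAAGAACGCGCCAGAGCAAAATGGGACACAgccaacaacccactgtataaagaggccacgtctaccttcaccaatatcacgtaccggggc
AC068234.1: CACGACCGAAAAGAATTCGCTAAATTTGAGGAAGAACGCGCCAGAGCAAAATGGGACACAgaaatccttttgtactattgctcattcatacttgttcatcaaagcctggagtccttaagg

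Genes with long transcripts had lower ratios across the whole library, and ITGAV and ITGA2 are among them. Over 10 groups of protein-coding genes ordered by the length of the longest annotated transcript, the groups' median log2 CPM ratio ran between 0.07 for the shortest transcripts and -0.14 for the longest. Median GC content was 53.7% in the shortest group and 43.2% in the longest, so these medians do not separate length from GC content. The longest transcript of ITGA2 measured 7.87 kb with 40.2% GC, that of ITGAV 7.03 kb with 38.3% GC, and that of ITGB1 3.78 kb with 40.0% GC. A curve in length and GC was fitted to 11367 protein-coding genes. Once it was subtracted, the ratio of ITGAV was 0.944 (0.899 to 0.992), that of ITGA2 0.972 (0.919 to 1.03) and that of ITGB1 1.00 (0.990 to 1.02). ITGA6 then stood at 1.08 (1.05 to 1.12), ITGA3 at 1.00 (0.989 to 1.02) and ITGA5 at 1.04 (0.997 to 1.08). After this subtraction 1 subunit, ITGAV, had an interval below 1 and 1, ITGA6, an interval above it, against 13.1% and 14.7% of these 11367 genes. Within the length group of ITGAV, 17.5% of 1136 genes had a ratio as low or lower, and within that of ITGA2, 33.4% of 1137 genes.

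**Figure D3:**
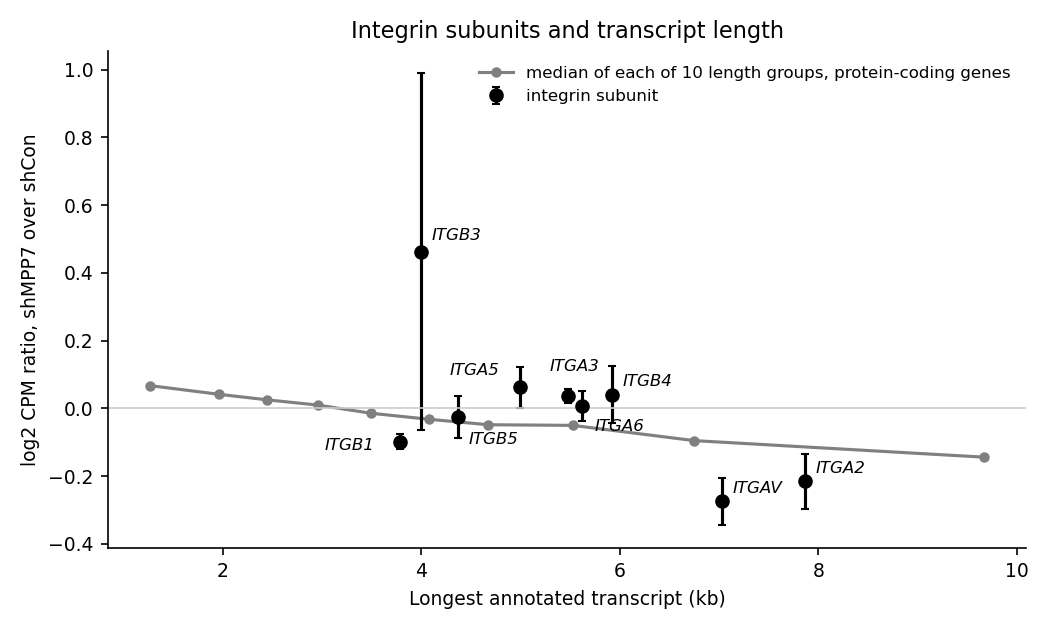
Log2 CPM ratio of shMPP7 over shCon against the length of the longest annotated transcript (kb) for the 9 subunits with at least 100 counts (black, bars for 95% counting intervals) and the median of 10 length groups of protein-coding genes (grey). ITGAV and ITGA2 have the longest transcripts of the 9, and the grey median is 0.07 in the shortest group and -0.14 in the longest.

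For ITGA5 the deposited FPKM and count values gave different pictures. Its FPKM was 60.4 in shMPP7, against 42.8 in shCon, a ratio of 1.41, while its CPM ratio was 1.04. FPKM per CPM was thus 1.35-fold higher in shMPP7 than in shCon, and 2.86% of the genes compared had a factor as large or larger. The median factor over all genes compared was 1.04. CPM divided by FPKM, which has the unit of a length, was 3.10 kb in shMPP7 and 4.19 kb in shCon for ITGA5. The longest annotated coding transcript of the gene measures 4444 bases and the other annotated coding transcript 757 bases. A different mix of transcripts and a different estimate of the same mix cannot be told apart in a table by gene.

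For the other well-counted subunits this factor lay between 0.948 (ITGA2) and 1.12 (ITGB4). ITGB4 therefore had a FPKM ratio of 1.16, with 24.9 FPKM in shMPP7 against 21.5 FPKM in shCon, and a CPM ratio of 1.03. ITGB3 and ITGB8 had factors of 0.802 and 0.695 at low counts.

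**Figure D4:**
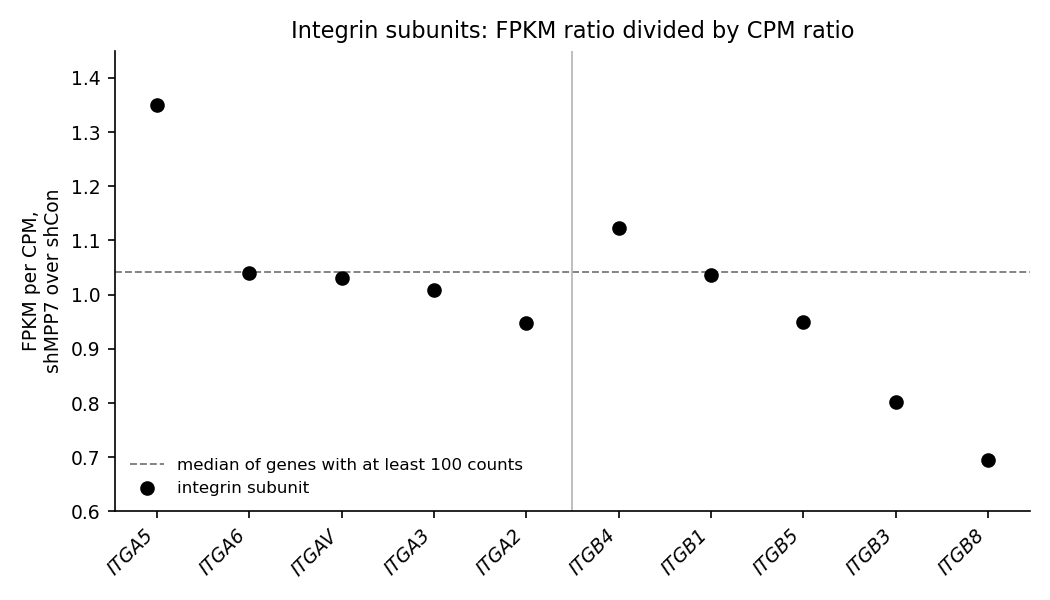
FPKM per CPM in shMPP7 divided by FPKM per CPM in shCon for each subunit (points), with the median over genes with at least 100 counts (dashed, 1.04). ITGA5 lies highest at 1.35, and ITGB8 lowest at 0.695.

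Because subunits work in pairs, their FPKM were also set against each other within each library. These are RNA levels and say nothing of the pairs at the surface. The 5 alpha subunits, which can all pair with beta 1, summed to 503 FPKM in shMPP7, against 478 FPKM in shCon. The sum was 1.02 times ITGB1 in shMPP7 and 0.944 times ITGB1 in shCon. It leaves out ITGA1, another partner of beta 1, which had 35.0 FPKM in shMPP7 and 34.3 FPKM in shCon. In the sum over alpha subunits ITGA3 held 66.2% in shMPP7 and 67.4% in shCon. ITGA5 held 12.0% in shMPP7 and 9.0% in shCon, with the FPKM shift described above. Among the partners of alpha V in the set (ITGB1, ITGB3, ITGB5 and ITGB8), ITGB1 held 86.2% of the summed FPKM in shMPP7 and 85.7% in shCon. ITGB5 held 13.7% and 14.1%. ITGB6, a partner outside the set, had 1.16 FPKM in shMPP7 and 0.088 FPKM in shCon, on 7 and 9 counts. Its CPM ratio was 0.759 (0.240 to 2.29). ITGB3 held 0.150% in shMPP7 and 0.131% in shCon. ITGA6 stood at 2.90 times ITGB4 in shMPP7 and 3.21 times in shCon, and ITGB5 at 3.30 times ITGAV in shMPP7 and 3.01 times in shCon. No single one of these balances differed by more than 1.5-fold between the libraries, apart from the share of ITGB8, which rests on 7 and 15 counts.

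Of the 16 other integrin subunits, 2 had at least 100 counts. ITGA1, a collagen-binding partner of beta 1, had 1915 counts in shMPP7, against 1972 in shCon, a CPM ratio of 0.948 (0.890 to 1.01). With the length and GC curve subtracted its ratio was 1.11 (1.04 to 1.18). Part of its exons overlap PELO on the same strand. ITGAE, known from intraepithelial T cells, had 326 counts in shMPP7, against 347 in shCon, a ratio of 0.917 (0.786 to 1.07). Its exons overlap HASPIN on the opposite strand (listed in the table under an older name), which had 988 counts in shMPP7 and 931 in shCon, and no source used here says whether strand was used in counting. Antisense or divergent genes also overlap exons of ITGA5, ITGA6, ITGAV, ITGB1 and ITGB8 by at most 203 bases each, the highest of them ITGB1-DT with 89 counts in shMPP7 and 92 in shCon. ITGA4, ITGA8 and ITGAL had 0 counts in both libraries, which allows up to 0.122 CPM in shMPP7 and 0.125 CPM in shCon.

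The remaining subunits had few counts. ITGB2, the leukocyte beta subunit, had 38 counts in shMPP7, against 26 in shCon (CPM ratio 1.43, 0.844 to 2.45). ITGAM, one of its partners, had 4 counts in shMPP7, against 15 in shCon (0.260, 0.0629 to 0.817). ITGA2B, the platelet alpha subunit, had 17 and 15 counts, ITGA7, a laminin-binding subunit, 18 and 20, ITGA10 9 and 10, and ITGB6, an epithelial alpha V partner, 7 and 9, each with an interval that includes 1. ITGA9, ITGA11, ITGAD, ITGAX and ITGB7 had at most 1 count in shMPP7 and 4 in shCon.

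Genes that act with integrins were likewise close to equal. The 7 lists of other subunits, activators, adaptors, ligands and partners held 92 genes with at least 100 counts, of which 0 passed 2-fold. At 1.2-fold 5 passed, against 15.9% of all genes compared. Fewer passed among genes with at least 1000 counts, where 96 of 7522 were higher and 450 lower at 1.2-fold. The ratios given for the list genes are as counted. With the length and GC curve subtracted, 3 of the 92 passed 1.2-fold (APBB1IP, NEDD9 and LAMA4), against 9.83% of the protein-coding genes compared. That share also includes genes with fewer than 1000 counts. As counted, 2 of 16 activators and inhibitors had an interval above 1 (12.5%) and 3 below (18.8%). This was near the 13.8% and 21.5% of all genes compared, but the nearness holds only as counted. With the curve subtracted, CD47, FERMT2, RAP1A and RAP1B also lay above 1, and KRIT1 no longer lay below it. Of the protein-coding genes compared, 14.7% then lay above 1 and 13.1% below. APBB1IP, which brings talin to integrins, had 779 counts in shMPP7, against 573 in shCon, a CPM ratio of 1.33 (1.19 to 1.48). SHARPIN, an inhibitor that binds alpha tails, stood at 1.15 (1.07 to 1.24), and KRIT1, which binds the beta 1 tail inhibitor ITGB1BP1, at 0.835 (0.725 to 0.961), or 0.924 (0.802 to 1.06) with the curve subtracted. Talin itself, TLN1, chosen after its value was seen, stood at 0.995 (0.976 to 1.01).

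Among 19 adhesion adaptors and kinases, 3 had an interval above 1 (15.8%) and 4 below (21.1%) as counted. This was near the 13.8% and 21.5% of all genes compared. The nearness holds only as counted. With the curve subtracted, CRK, GIT2 and PARVA joined the 3 genes above 1, and LIMS1 and VCL no longer lay below it. Of the protein-coding genes compared, 14.7% then lay above 1 and 13.1% below. The docking protein gene NEDD9 had 126 counts in shMPP7, against 165 in shCon, a ratio of 0.745 (0.586 to 0.946). The focal adhesion protein gene ZYX stood at 1.14 (1.10 to 1.19) and the paxillin-binding GIT1 at 1.12 (1.06 to 1.19). Among 19 matrix ligands, 7 had an interval above 1 (36.8%) and 6 below (31.6%) as counted. The shares were 13.8% and 21.5% of all genes compared and 17.8% and 24.7% of those with at least 1000 counts. With the curve subtracted, COL1A1, COL4A2 and TGFB1 no longer lay above 1, while FBN1 did. LAMA3 no longer lay below 1, and FN1 moved from below 1 to above it. The protein-coding genes compared then had shares of 14.7% above 1 and 13.1% below. LAMA4, a laminin chain, stood at 1.39 (1.08 to 1.78) on 162 counts in shMPP7 and 114 in shCon. EDIL3, an RGD protein bound by alpha V integrins, had 751 counts in shMPP7, against 956 in shCon, a ratio of 0.767 (0.696 to 0.845), or 0.852 (0.773 to 0.939) with the curve subtracted. The collagen gene COL1A1 stood at 1.19 (1.01 to 1.41), or 1.18 (0.993 to 1.39) with the curve subtracted. FN1, the ligand of alpha 5 beta 1 and chosen after its value was seen, stood at 0.945 (0.918 to 0.973) as counted and at 1.06 (1.03 to 1.09) with the curve subtracted, so its direction depends on this step.

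Of 16 membrane partners, 6 had an interval above 1 (37.5%) and 2 below (12.5%) as counted. The shares were 13.8% and 21.5% of all genes compared and 17.8% and 24.7% of those with at least 1000 counts. This excess above 1 was not kept with the curve subtracted. BSG, CD63, CD9, LGALS1 and SLC3A2 then no longer lay above 1, while CD44 did. CD151 and CD82 joined the genes below 1. The tetraspanin gene CD9 stood at 1.09 (1.03 to 1.16), or 1.05 (0.995 to 1.11) with the curve subtracted, the galectin gene LGALS3 at 1.09 (1.03 to 1.16) and the caveolar coat gene CAV1 at 0.883 (0.856 to 0.911). The 3 hemidesmosome genes that join the alpha 6 beta 4 pair included DST, a plakin, with 3658 counts in shMPP7, against 4837 in shCon, a ratio of 0.738 (0.707 to 0.771). Its longest transcript measures 22431 bases, and with the curve subtracted its ratio was 0.891 (0.854 to 0.931), within 1.2-fold. PLEC, the plectin gene, stood at 1.00 (0.994 to 1.01) and COL17A1 at 0.942 (0.790 to 1.12). Of 17 genes of integrin trafficking, 2 had an interval above 1 (11.8%) and 4 below (23.5%) as counted. This was near the 13.8% and 21.5% of all genes compared. Here too the nearness holds only as counted, and with the curve subtracted the shares of the protein-coding genes compared were 14.7% above 1 and 13.1% below. NUMB, RAB11A and VPS35 then joined the 2 genes above 1, and RAB21 moved from below 1 to above it. SNX17 lay below 1 after this subtraction, and SWAP70 no longer did. HAX1 stood at 1.16 (1.09 to 1.24) and the clathrin gene CLTC at 0.873 (0.853 to 0.894), or 0.974 (0.952 to 0.998) with the curve subtracted. SWAP70 stood at 0.878 (0.824 to 0.936), or 0.938 (0.880 to 1.00) with the curve subtracted.

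**Figure D5:**
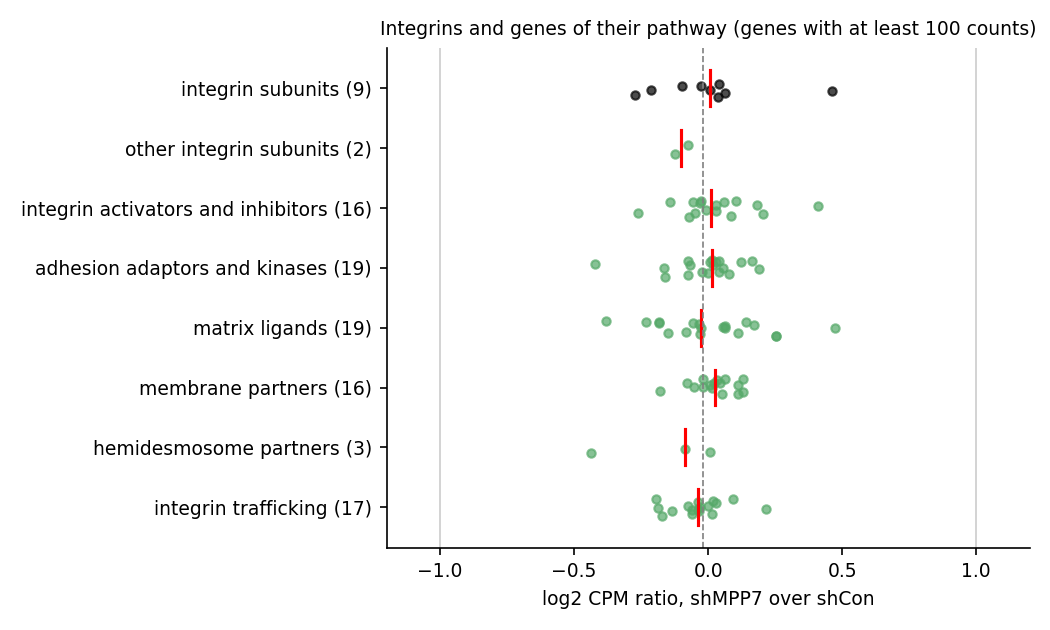
Log2 CPM ratio of shMPP7 over shCon for genes with at least 100 counts: the integrin subunits (black) and 7 lists of genes that act with them (green), with the number of genes in parentheses, the median of each row in red and the median of all genes dashed. All points lie inside the grey lines that mark 2-fold.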

How the data were processed

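Total RNA of 1 shMPP7 and 1 shCon culture was sequenced. The deposited table gives, per the file headers, a count and an FPKM value for each library. The counts as deposited are estimated counts, since 27.0% of the shMPP7 values above 0 and 28.2% of the shCon values above 0 are fractions. The FPKM values are scaled by transcript length and library size, as deposited by the authors. TopHat2 2.0.9, Cuffdiff and hg19 appear, without roles, in the submitters' processing notes, and no source used here names the tool behind the counts. Positions, types, transcript lengths and GC contents come from GENCODE 29 (GRCh38) through the Ensembl ID, which held 57895 of the 58233 IDs (99.4%).

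CPM is the estimated count divided by the library total, times 1000000. CPM ratios carry exact Clopper-Pearson 95% intervals on rounded counts, conditional on the summed count, and single counts carry exact Poisson intervals. Intervals and the floor of 3 counts cover counting error only, and reads without molecular identifiers are not independent molecules. A gene entered the comparison with a summed count of 100 or more and was called at 2-fold. No p-value was computed. The trend was a quadratic in log2 length and GC content, fitted by least squares to protein-coding genes after outlying genes were trimmed. Near-identical transcripts were searched with blastn 2.17.0 (at least 97% identity over 100 bases, same strand). TMM factors came from edgeR 4.0.16. Other work used Python 3.11.15. The intervals, the size rule and the trend were run on simulated Poisson counts with a trend that the fitted form can hold. Such counts meet the assumptions made, so this checks the code and not whether the assumptions hold in these libraries.

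Named genes were the 10 subunits, MPP7, other integrin subunits with at least 10 counts, and in each list the 3 genes with at least 100 counts farthest from a ratio of 1. Other names are marked in the text, were needed for an overlap, or had an interval that changed its place relative to 1 with the curve subtracted. The subunits and lists were chosen with earlier results of these data known.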

Additional observations from a re-analysis of the deposited data

How the results depend on the processing

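No paired analysis was possible because each group holds 1 library, and for the same reason no library could be left out. Of the repeats under another setting, 102 were scored as the same and 35 as moved. A ratio was scored by its counting interval and a count by a factor of 1.5. Repeats that summed the rows of a name could not move the subunits, because each of their names stood on 1 row. The tally also holds medians and pairing balances, for which no counting interval is given here. No subunit was called at 2-fold, so the repeats do not show whether a call is stable. With TMM scaling the ratio was 1.04 for ITGA3 and 0.951 for ITGB1. With the length and GC trend subtracted it was 0.972 for ITGA2, 1.00 for ITGA3, 1.08 for ITGA6, 0.944 for ITGAV and 1.00 for ITGB1, and 1 subunit had an interval below 1 and 1 above. The FPKM ratio with 1 added was 1.40 for ITGA5, 1.05 for ITGA6, 0.968 for ITGB1, 1.15 for ITGB4 and 0.934 for ITGB5. With 0.1 added it was 1.41, 1.05, 0.968, 1.15 and 0.933 for the same genes in this order, and the cause was not tested. At 1.2-fold 2 subunits were called (ITGB3 and ITGAV), and 5 genes of the 7 lists, or 3 with the trend subtracted, an alternative chosen after seeing the data. With no minimum count 1 subunit was called at 2-fold, ITGB8. With 99% intervals 1 lay above 1. With the counts of AC068234.1 added, likewise chosen after seeing the data, ITGB3, higher at 1.2-fold by its own counts, stood at 0.939 and the median log2 ratio of the 5 beta subunits at -0.091. With CPM per kb of the longest transcript in place of FPKM, 6 of 10 subunits held their rank in shMPP7, and ITGAV stood above ITGB4 in both libraries. The alpha sum over ITGB1 was then 1.12 in shMPP7 and 1.04 in shCon, ITGA6 over ITGB4 3.71 and 3.80, and ITGB5 over ITGAV 2.26 and 1.90. The share of ITGB1 among the alpha V partners in the set was 89.6% and 90.1%. Whether the alpha sum exceeds ITGB1 in shCon thus depends on the length used, and the sum leaves out ITGA1. Depth limits ITGB3 (76 and 53.9 counts) and ITGB8 (7 and 15 counts) most.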
